A study of Mus musculus with 24 samples.

Results

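Small intestinal organoids labelled as double knockouts of the Mediator kinases Cdk8 and Cdk19 were compared with wild-type (WT) organoids by RNA sequencing. The comparison took the 3 libraries titled as double knockout and the 3 titled as WT, 6 of the 24 libraries of the series, and used the deposited read count of every gene. Organoids are epithelial cultures grown in a gel matrix from intestinal crypts, and they hold stem cells and their differentiated progeny. WT organoids came from Cdk8 lox/lox mice. The double knockout organoids (genotype CDK8-/- and CDK19-/- in the labels) came from Cdk8 lox/lox mice that also carried Villin-CreERT2, a Cre recombinase that the villin promoter confines to the epithelium and that 4-hydroxytamoxifen switches on to remove exon 2 of Cdk8. Their Cdk19 gene was cut in exon 1 by Cas9 with a guide RNA, delivered by a lentivirus with puromycin selection, and single organoids were then picked for clonal expansion. All genotype groups, WT included, had been given 600 nM 4-hydroxytamoxifen for 7 days before lysis. The transgene, the lentivirus, the clonal picking and the line of origin therefore cannot be told apart from the loss of the kinases in this comparison. The protocol calls the triplicates biological, but no label ties them to separate animals or lines, so p-values measure the spread between these libraries, which may be technical. The series also holds single Cdk8 and Cdk19 knockouts, with 3 libraries each, and a separate experiment with Senexin B, an inhibitor of both kinases, with 12 libraries.

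CDK8 and CDK19 are alternative catalytic subunits of the Mediator kinase module, which also holds cyclin C, MED12 and MED13. The module docks reversibly on Mediator, the complex that carries signals from enhancer-bound transcription factors to RNA polymerase II, and the kinases phosphorylate transcription factors and parts of the transcription machinery. In the small intestine, stem cells at the crypt base depend on Wnt signals, transit-amplifying progenitors above them divide rapidly, and their progeny become absorptive enterocytes or secretory Paneth, goblet, enteroendocrine and tuft cells. In RNA from whole organoids, fewer cells of a type and less RNA per cell cannot be told apart.

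The counted reads of the 6 libraries came to 14636861 to 15473180 per library. Levels are given as normalised counts, the read count scaled to a common effective library size, and are comparable between libraries but not between genes. The labels give the tissue as intestinal organoids and the cell type as 4T1, the name of a mouse mammary tumour line. The data followed the tissue: the summed normalised counts of 10 epithelial markers were 166621 to 178190 in WT and 182365 to 204208 in the double knockout, whereas of 9 mammary gland markers the milk protein genes Csn2 and Wap had 0 reads in all 6 libraries. The summed mammary list came to 5.03 to 8.35 normalised counts in WT and 310 to 399 in the double knockout, almost all of it Esr1, which is described with the largest changes. The basal keratin gene Krt5 had 0, 0 and 0 raw reads in WT and 3, 10 and 11 in the double knockout, too few for the edgeR test, and DESeq2 called 2 rises in this list where edgeR called Esr1 alone. The collagen genes Col1a2 and Col3a1 also had 0 reads, and summed fibroblast and muscle markers came to 39.7 to 49.3 normalised counts in WT and 27.5 to 48.3 in the double knockout. Acta2, a smooth muscle actin gene, was called as higher from 1, 2 and 1 raw reads in WT and 6, 24 and 19 in the double knockout, a call that held in 1 of 6 leave-one-out fits and was lost without double knockout replicate 3 (edgeR adjusted p = 0.0723). Summed blood and endothelial markers came to 194 to 223 and to 245 to 270, without overlap. Of the 4 tested none was called, with a median log2 fold change of 1.31. The blood cell gene Ptprc had 7, 2 and 0 raw reads in WT and 10, 15 and 18 in the double knockout (log2 fold change 2.16, SE 0.79, edgeR adjusted p = 0.0807). It was called by edgeR without a filter and on the unstranded counts. The part of these markers in the results was not tested. Reads assigned to several genomic places made up 22.5% to 22.9% of each WT table and 19.5% to 20.1% of each double knockout table, and mitochondrial genes held 6.11% to 6.58% and 5.39% to 5.86% of counted reads. The part of these differences in the results was not tested.

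The kinases themselves were read first as a check of the labels. Cdk8 (chromosome 5, 146231230 to 146302874, plus strand; GRCm38.p6 throughout) had 635, 646 and 534 normalised counts in WT, against 707, 659 and 645 in the double knockout libraries, overlapping ranges (log2 fold change 0.15, SE 0.11, edgeR adjusted p = 0.404), and since the deletion removes 1 exon, a count over the whole gene need not fall. Cdk19 (chromosome 10, 40339564 to 40483818, plus strand) had 711, 749 and 726 in WT and 403, 355 and 773 in the double knockout (log2 fold change -0.51, SE 0.27, edgeR adjusted p = 0.211). Replicates 1 and 2 of the double knockout were below every WT library for Cdk19, and the library labelled double knockout replicate 3 was above every WT library. Without that library Cdk19 was called as a fall (log2 fold change -0.94, edgeR adjusted p = 0.0129). Results that rest on this library are therefore given with and without it. Among the libraries labelled Cdk19 knockout, Cdk19 was at 729, 420.1 and 422 in replicates 1, 2 and 3, so replicate 1 lay inside the WT range. The Cdk19 edit is a short deletion within exon 1, so a count over this whole gene need not fall either. The authors report that DNA sequencing, Western blotting and qPCR showed the loss of CDK19 in the organoids. Which of these libraries those checks covered is not stated. All groups are called by their labels below. Of the 149 called genes named by rule, 134 kept the call without double knockout replicate 3. Among those described below the calls of Defa24, Cybrd1, Cdk1, Aurkb, Ncl, Gnl3, Ifit1, Oas3, Dusp5 and Atf4 were lost. Another 5 named genes gained a call without it, Cdk19 and Alpi among them. None of the 6 kinase module genes that could be tested was called with all libraries, and 1, Cdk19, without that one. Of 26 core Mediator genes, 3 fell (11.5%, against 7.9% of all tested genes) and none rose. They were Med16 (-0.50 on the log2 scale), Med25 (-0.37) and Med18 (-0.61), at edgeR adjusted p values of 0.00406, 0.00633 and 0.0107. All of them kept the call whichever of the 6 libraries was left out.

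The libraries labelled double knockout differed from WT in 2700 of 15602 tested genes at an edgeR quasi-likelihood adjusted p under 0.05, which is 17.3% (1468 higher, 9.41%; 1232 lower, 7.9%). The number was 1348 to 2452 with single libraries left out, lowest without WT replicate 1 and highest without double knockout replicate 3, and 1128 genes kept the call in all 6 such fits. Called changes of more than 2-fold made up 4.67% of tested genes, with 490 rises and 239 falls, and these 729 became 471 to 716 with a library left out and 53 when the test itself required more than 2-fold. The 3 double knockout libraries did not overlap the 3 WT libraries for 38.8% of tested genes, called or not. Each gene group below is a list of genes of known function, and its count of called members and its median log2 fold change are to be read against these shares and against the median over all tested genes, -0.0090. Where edgeR called no member of a list in a direction, 0 to 2 members passed an unadjusted p of 0.05 in that direction, and DESeq2 called 0 to 2. Fold changes are on the log2 scale, double knockout minus WT, with the standard error (SE) of the fit and n = 3 libraries a side.

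**Figure D1:**
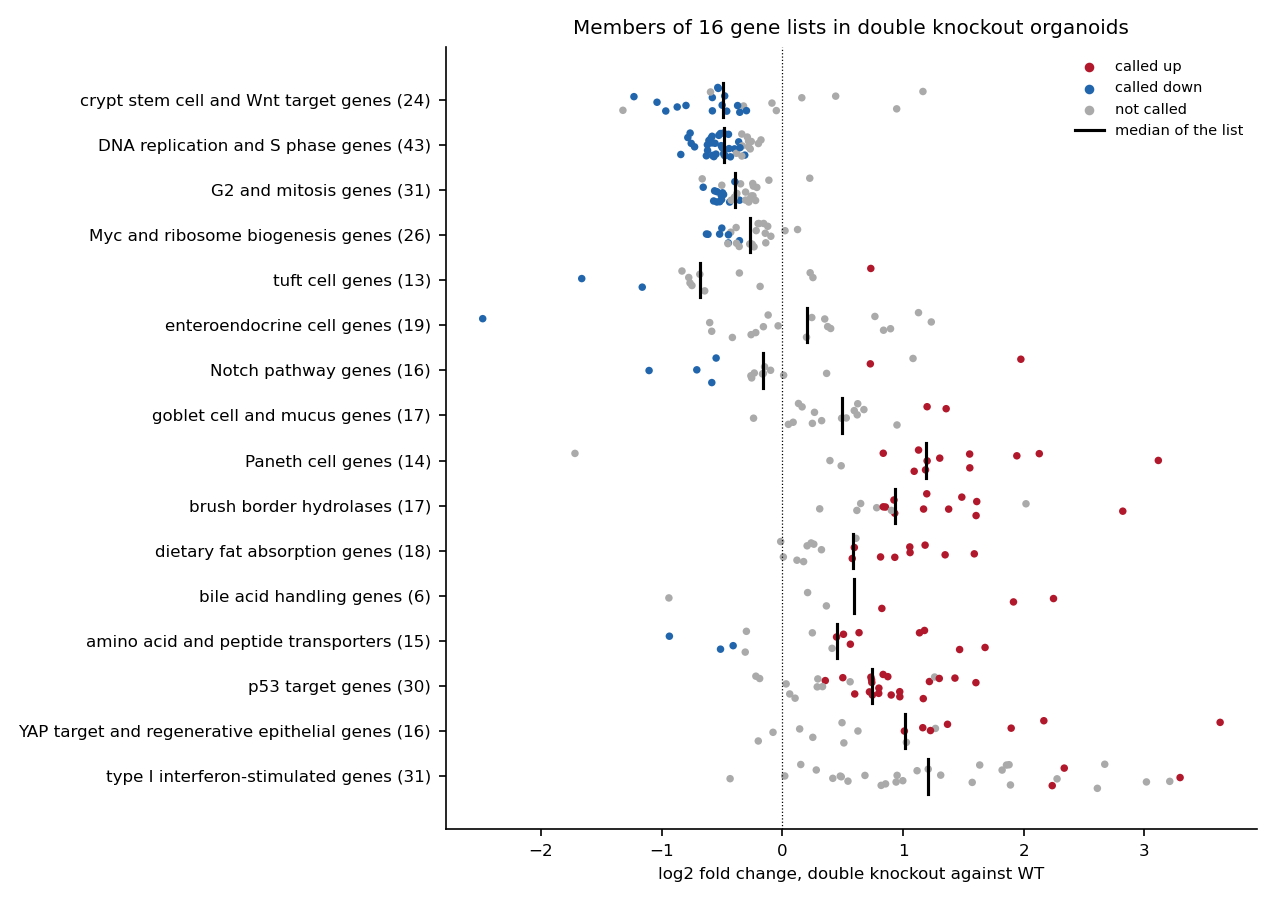
Log2 fold change (double knockout minus WT, horizontal axis) of every tested member of 16 gene lists (rows), with rises called at an adjusted p under 0.05 in red, called falls in blue, members not called in grey and the list median as a black bar. The medians of the Paneth cell (1.19), brush border (0.93) and p53 target (0.74) lists lie to the right of 0, and those of the stem cell (-0.49) and DNA replication (-0.49) lists to the left.

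Of 24 tested genes of the crypt stem cell and of Wnt signalling, 15 fell and none rose in the double knockout, with a median of -0.49. Another 4 had a positive log2 fold change without a call, led by the Wnt effector gene Lef1 (log2 fold change 1.17, SE 0.44, edgeR adjusted p = 0.0863) and the receptor gene Tnfrsf19 (log2 fold change 0.95, SE 0.47, edgeR adjusted p = 0.184). The hyaluronan receptor gene Cd44 was called as a rise by DESeq2 (adjusted p = 0.0493) and not by edgeR (log2 fold change 0.44, SE 0.17, edgeR adjusted p = 0.0904), and leave-one-out fits called up to 2 rises. Lgr5, the R-spondin receptor that marks crypt base columnar stem cells (chromosome 10, 115450311 to 115587780, minus strand), had 6022, 6039 and 5596 normalised counts in WT against 2329.8, 2251 and 2952 in the double knockout, a 2.34-fold fall without overlap (log2 fold change -1.23, SE 0.15, edgeR adjusted p = 0.00055). Ascl2, the transcription factor that maintains stem cell identity, had 1318, 1335 and 1075 and 576, 719 and 521, and it too fell without overlap (log2 fold change -1.04, SE 0.15, edgeR adjusted p = 0.00144). Both genes were below every WT library in each of the 3 double knockout libraries. Cdca7, a zinc finger protein of dividing cells, fell from 4392, 4276 and 4201 to 1983, 2384 and 2224 (log2 fold change -0.97, SE 0.12, edgeR adjusted p = 0.000745). Rgmb, a co-receptor of the bone morphogenetic protein pathway, fell from 2301, 2264 and 2066 to 1292, 1164 and 1358 (log2 fold change -0.80, SE 0.12, edgeR adjusted p = 0.00163). These 4 genes kept the call in all 6 leave-one-out fits. Further called members, named after their values were seen, were Sox9 (-0.87), the Wnt feedback gene Axin2 (-0.48) and the crypt positioning receptor Ephb2 (-0.46), with edgeR adjusted p values of 0.00288, 0.00713 and 0.00814. Olfm4, an abundant stem cell secreted protein, was not called: its levels were 26215, 24401 and 21952 in WT and 21002, 20378 and 16712 in the double knockout (log2 fold change -0.32, SE 0.22, edgeR adjusted p = 0.352). The count of falls was 10, 9 and 10 without WT replicate 1, 2 or 3 and 9, 11 and 15 without double knockout replicate 1, 2 or 3.

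Most tested DNA replication genes were called as falls. All 43 members had a negative log2 fold change, 32 were called as falls and none as rises, and 39 had every double knockout library below every WT library. The group's median was -0.49, so the typical fall was modest. Cdt1, which licenses origins by loading the MCM helicase, had 2015, 1885 and 2371 normalised counts in WT against 1142, 1221 and 1137 in the double knockout, with no overlap (log2 fold change -0.84, SE 0.12, edgeR adjusted p = 0.00111). Mcm6, a subunit of that helicase, had 4064, 4279.8 and 4381 and 2364, 2893 and 2433 (log2 fold change -0.73, SE 0.13, edgeR adjusted p = 0.00307). Both stood clear of the WT range in every double knockout library. Prim1, the catalytic primase subunit, went from 796, 789 and 853 to 402, 534 and 481 (log2 fold change -0.78, SE 0.13, edgeR adjusted p = 0.00201). Uhrf1, which helps to copy DNA methylation onto new strands, went from 1440.2, 1439 and 1651 to 1084, 988 and 878 (log2 fold change -0.62, SE 0.11, edgeR adjusted p = 0.00273). Mcm2, another helicase subunit, fell as well (log2 fold change -0.55, SE 0.12, edgeR adjusted p = 0.00973), whereas the sliding clamp gene Pcna, at 1855, 1939 and 2089 in WT and 1739, 1802 and 1353 in the double knockout, did not pass the test (log2 fold change -0.27, SE 0.12, edgeR adjusted p = 0.158). The number of called falls was 20, 17 and 19 without WT replicate 1, 2 or 3 and 21, 26 and 18 without double knockout replicate 1, 2 or 3. Leaving out any library but double knockout replicate 2 thus moved it by more than 1.5 times.

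**Figure D2:**
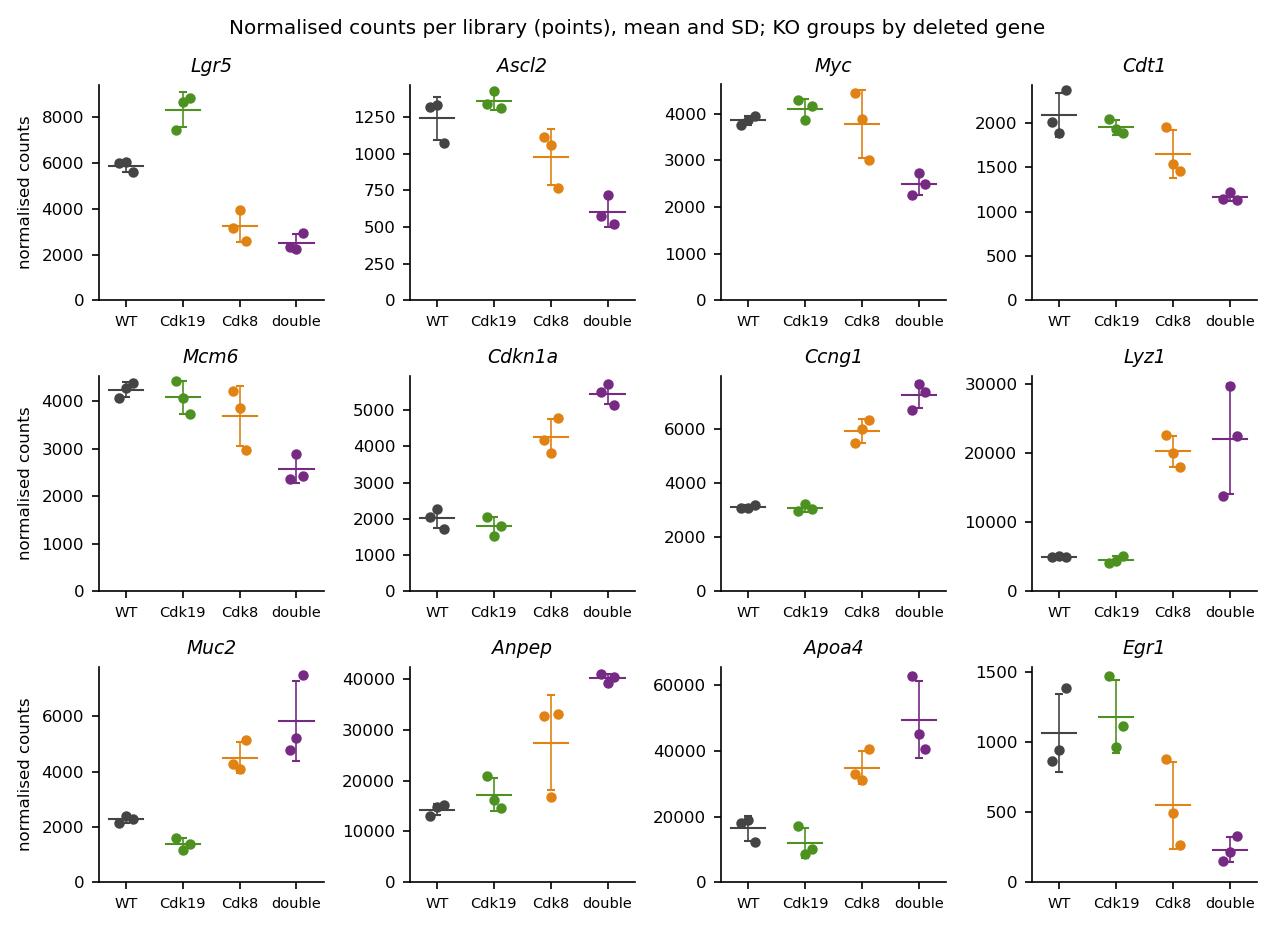
Normalised counts (vertical axis, starting at 0) of 12 genes in each library of the WT, Cdk19 knockout, Cdk8 knockout and double knockout groups, with points for libraries and the mean and SD of 3 libraries as the bar and whiskers. Lgr5, Ascl2, Cdt1, Mcm6 and Egr1 are lower in the 3 double knockout libraries than in the 3 WT libraries, and Cdkn1a, Ccng1, Lyz1, Muc2, Anpep and Apoa4 are higher.

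The promoters of the falling replication genes are shown because E2F factors, which drive S phase genes, bind a short motif near their start sites. The letters searched were TTTCCCGC, TTTCGCGC, TTTGCCGC and TTTGGCGC on both strands, where matches on opposite strands can overlap, in windows from 250 bases before to 50 bases after the start. The windows are RefSeq annotations on GRCm38.p6. The motif was in 744 of 32851 windows (2.26%) and in 491 of the 11032 tested genes with a window (4.45%). It was in 13 of the 35 replication genes with a window (37.1%): 11 of 24 called falls (45.8%) and 2 of 11 members not called (18.2%). Among all called genes the share was 90 of 891 falls (10.1%) and 22 of 1114 rises (1.97%). A match is a description of letters, not evidence of binding. The windows of Cdt1 (chr8:122567765-122568064, plus strand), Uhrf1 (chr17:56304063-56304362, plus strand), Mcm6 (chr1:128359656-128359955, minus strand) and Mcm3 (chr1:20820263-20820562, minus strand) are given from 5′ to 3′ with each match in capitals.
Cdt1: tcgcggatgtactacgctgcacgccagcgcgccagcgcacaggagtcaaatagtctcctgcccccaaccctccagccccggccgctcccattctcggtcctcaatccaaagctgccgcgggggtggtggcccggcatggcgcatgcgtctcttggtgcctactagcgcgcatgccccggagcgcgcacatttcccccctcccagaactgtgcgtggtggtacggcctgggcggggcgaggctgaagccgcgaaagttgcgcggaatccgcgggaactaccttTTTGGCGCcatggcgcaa
Uhrf1: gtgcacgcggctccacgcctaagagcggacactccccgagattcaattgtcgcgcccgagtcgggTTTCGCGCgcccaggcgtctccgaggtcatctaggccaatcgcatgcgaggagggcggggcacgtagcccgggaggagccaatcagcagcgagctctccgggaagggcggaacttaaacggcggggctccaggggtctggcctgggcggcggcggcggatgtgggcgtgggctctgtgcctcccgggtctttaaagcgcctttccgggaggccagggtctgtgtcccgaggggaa
Mcm6: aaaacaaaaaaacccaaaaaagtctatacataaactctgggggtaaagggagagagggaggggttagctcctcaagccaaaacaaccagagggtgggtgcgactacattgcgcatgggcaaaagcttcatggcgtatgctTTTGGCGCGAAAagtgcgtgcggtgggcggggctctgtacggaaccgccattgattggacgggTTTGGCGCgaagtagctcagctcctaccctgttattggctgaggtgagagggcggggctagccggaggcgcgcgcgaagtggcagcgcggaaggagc
Mcm3: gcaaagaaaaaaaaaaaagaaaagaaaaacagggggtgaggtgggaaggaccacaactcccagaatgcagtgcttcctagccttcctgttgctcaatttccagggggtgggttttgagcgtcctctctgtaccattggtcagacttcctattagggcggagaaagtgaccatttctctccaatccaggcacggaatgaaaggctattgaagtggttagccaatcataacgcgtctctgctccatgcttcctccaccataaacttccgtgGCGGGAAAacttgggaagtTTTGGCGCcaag

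Genes of G2 and mitosis were lower where they were called. Of 31 tested, 13 fell and none rose, with a median of -0.39, and 26 lay below WT in every library. Foxm1, a transcription factor for mitotic genes, had 1058, 1028 and 1032 normalised counts in WT against 801, 711 and 715 in the double knockout (log2 fold change -0.49, SE 0.11, edgeR adjusted p = 0.0131). Nusap1, a spindle protein, had 1617, 1631 and 1735 and 1142, 1144 and 1092 (log2 fold change -0.56, SE 0.13, edgeR adjusted p = 0.0127). The kinase gene Cdk1, which triggers mitosis, fell from 1639, 1658 and 1657 to 1127, 1334 and 941 (log2 fold change -0.54, SE 0.14, edgeR adjusted p = 0.0191). Its window holds the cell cycle homology region letters TTTGAA, searched on both strands. These letters were in 17.9% of all windows and in 1624 of the 11032 tested genes with a window (14.7%). They were in 18 of the 25 mitotic genes with a window (72%): 6 of 9 called falls (66.7%) and 12 of 16 members not called (75%). Aurkb, a kinase of chromosome segregation, was also called (log2 fold change -0.51, SE 0.13, edgeR adjusted p = 0.0216), while the proliferation marker Mki67 was not, at 5266, 4464 and 5300.0 in WT and 3801, 2602 and 3088 in the double knockout (log2 fold change -0.66, SE 0.25, edgeR adjusted p = 0.092). This group was the least steady of the proliferation lists, and its number of falls was 2, 5 and 5 without WT replicate 1, 2 or 3 and 10, 4 and 3 without double knockout replicate 1, 2 or 3. Leave-one-out fits lost the call of Foxm1 (1 of 6 fits, highest edgeR adjusted p = 0.0508, without WT replicate 1), Cdk1 (3, 0.0596, without WT replicate 1) and Aurkb (2, 0.0839, without WT replicate 1). The Cdk1 window (chr10:69352863-69353162, minus strand) follows, with matches in capitals.
Cdk1: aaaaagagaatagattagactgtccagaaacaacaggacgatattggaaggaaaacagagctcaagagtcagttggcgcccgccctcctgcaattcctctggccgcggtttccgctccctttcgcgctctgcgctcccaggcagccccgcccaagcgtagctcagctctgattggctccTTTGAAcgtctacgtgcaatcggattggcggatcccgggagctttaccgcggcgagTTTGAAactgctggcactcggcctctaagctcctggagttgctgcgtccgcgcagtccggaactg

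Myc, which sits upstream of growth and ribosome genes and is itself a Wnt target, had 3753, 3859.8 and 3947 normalised counts in WT against 2248, 2737 and 2493 in the double knockout, a fall without overlap (log2 fold change -0.63, SE 0.13, edgeR adjusted p = 0.00637). In its list, which also holds nucleolar and ribosome assembly genes, 7 of 26 fell, none rose and the median was -0.26. They included the nucleolar proteins Npm1 (log2 fold change -0.62, SE 0.14, edgeR adjusted p = 0.0109) and Ncl (log2 fold change -0.50, SE 0.15, edgeR adjusted p = 0.0354), the nucleolar GTPase gene Gnl3 (log2 fold change -0.52, SE 0.14, edgeR adjusted p = 0.0266) and Wdr43, a factor of small-subunit assembly (log2 fold change -0.45, SE 0.094, edgeR adjusted p = 0.00803). The number of falls was 3, 3 and 3 without WT replicate 1, 2 or 3 and 4, 4 and 3 without double knockout replicate 1, 2 or 3, and Myc kept its call in all 6. The call was lost on leaving out single libraries for Ncl (6 of 6 fits, highest edgeR adjusted p = 0.099, without WT replicate 3) and Gnl3 (5, 0.0838, without WT replicate 1).

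Most tested targets of p53, the transcription factor that responds to DNA damage and other stress, were called as rises. Of 30 tested members, 20 rose (66.7% against 9.41% of all tested genes), none fell and the median was 0.74. Cdkn1a, which encodes the cyclin-dependent kinase inhibitor p21, had 2061, 2275 and 1733 normalised counts in WT against 5510.4, 5709 and 5140.1 in the double knockout, a 2.7-fold rise without overlap (log2 fold change 1.43, SE 0.13, edgeR adjusted p = 0.000115). Ccng1, cyclin G1, rose 2.33-fold (log2 fold change 1.22, SE 0.085, edgeR adjusted p = 8.95e-06) and was among the 10 called genes with the lowest p-values. Mdm2, the ubiquitin ligase that restrains p53, had 699, 741 and 715 and 1125, 1224 and 1249 (log2 fold change 0.74, SE 0.093, edgeR adjusted p = 0.000645). No double knockout library reached down into the WT range for any of these genes. Bax, a promoter of apoptosis, had 1019, 955 and 937 in WT and 1478, 1765 and 1642 in the double knockout (log2 fold change 0.75, SE 0.11, edgeR adjusted p = 0.00163). Ddit4l, an inhibitor of mTOR signalling, rose from a low level, 38.2, 39 and 28.2, to 110.2, 117 and 94.2 (log2 fold change 1.60, SE 0.19, edgeR adjusted p = 0.000512). The list was steady, with 17 to 20 rises in the 6 leave-one-out fits and 20 without double knockout replicate 3. Not every target moved: among members chosen after seeing values, the apoptosis genes Bbc3 (0.29, edgeR adjusted p = 0.306) and Pmaip1 (0.062, edgeR adjusted p = 0.849) did not pass.

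Paneth cells, which secrete lysozyme and defensins at the crypt base, left the largest group median of the secretory lists, 1.19. Of 14 tested members, 11 rose and none fell. Mptx1, a pentraxin, was lower in every double knockout library at 12.2, 5.91 and 35.9 against 59.3, 65.7 and 54.3 in WT and was not called (log2 fold change -1.72, SE 0.59, edgeR adjusted p = 0.0659), but it was called as a fall by DESeq2 (adjusted p = 0.0214) and without double knockout replicate 3 (edgeR adjusted p = 0.0161). Lyz1, the Paneth cell lysozyme (chromosome 10, 117287797 to 117292868, minus strand), had 4976, 5088 and 5055 normalised counts in WT against 13867, 29699.9 and 22586 in the double knockout, a 4.38-fold rise without overlap (log2 fold change 2.13, SE 0.22, edgeR adjusted p = 0.000235). Ang4, an antimicrobial ribonuclease, had 1073, 1279 and 864 and 1807, 4347 and 3289 (log2 fold change 1.55, SE 0.27, edgeR adjusted p = 0.00292). The 3 WT libraries of Lyz1 lay close together and the double knockout libraries spread by more than 2-fold. Among the defensins, Defa22 had 299, 270.1 and 299.6 in WT and 798, 999 and 1543 in the double knockout (log2 fold change 1.94, SE 0.30, edgeR adjusted p = 0.00183), Defa17 had 610.5, 700.5 and 409 and 1254, 2452 and 1341 (log2 fold change 1.55, SE 0.24, edgeR adjusted p = 0.00186), and Defa24, called too, had overlapping groups (log2 fold change 0.84, SE 0.25, edgeR adjusted p = 0.0411). Defensin genes are near-identical copies, and counts of single members are uncertain because reads that map to several places were not counted. Mptx2, a pentraxin of Paneth cells, had 91.5, 83.2 and 67.9 and 798, 212 and 1097 and was one of the 12 largest rises (log2 fold change 3.12, SE 0.71, edgeR adjusted p = 0.0117). The number of rises was between 8 and 12 in the leave-one-out fits, and 8 without double knockout replicate 3. In leave-one-out fits the call was lost for Defa24 (5 of 6 fits, highest edgeR adjusted p = 0.149, without double knockout replicate 2).

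Goblet cells secrete the mucus gel. Muc2, its main gel-forming mucin, had 2132, 2416 and 2286 normalised counts in WT against 4790.2, 5237 and 7487 in the double knockout, a 2.56-fold rise without overlap (log2 fold change 1.36, SE 0.16, edgeR adjusted p = 0.00055). Zg16, a lectin of the mucus layer, had 1110.4, 1201 and 2539.8 and 2991, 5236 and 2914 (log2 fold change 1.20, SE 0.30, edgeR adjusted p = 0.0185). These were the 2 calls among 17 tested goblet genes. The median was 0.49, and Tff3, a trefoil peptide, had 6815, 6757 and 7264 and 7879.9, 13759 and 10402 without passing the test (log2 fold change 0.62, SE 0.22, edgeR adjusted p = 0.0692). DESeq2 called Tff3 (adjusted p = 0.0239) and 6 rises in the list, and edgeR without a filter called Tff3 too. The number of calls was 1, 1 and 2 without WT replicate 1, 2 or 3 and 5, 1 and 3 without double knockout replicate 1, 2 or 3. Of 5 mucins anchored in the membrane, Muc3 (599, 576 and 434 in WT, 1916, 1178 and 1809 in the double knockout; log2 fold change 1.61, SE 0.20, edgeR adjusted p = 0.000585) and Muc13 (log2 fold change 0.73, SE 0.11, edgeR adjusted p = 0.00186) rose. Enzymes that build mucin sugar chains went both ways, 6 up and 2 down of 22: Galnt3, which starts chains, rose (log2 fold change 0.71, SE 0.11, edgeR adjusted p = 0.00152) and its relative Galnt4 fell (log2 fold change -0.83, SE 0.14, edgeR adjusted p = 0.00262). In leave-one-out fits these rises numbered 4 to 7 and the falls 1 to 2, with 1 fall in every such fit but that without double knockout replicate 3. Leave-one-out fits lost the call of Zg16 (3 of 6 fits, highest edgeR adjusted p = 0.0816, without WT replicate 1).

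Tuft cells, the chemosensory cells of the epithelium, showed mixed calls. Pou2f3, the transcription factor they need, had 179, 175 and 134 normalised counts in WT against 23.5, 58.1 and 71.9 in the double knockout, a fall without overlap (log2 fold change -1.66, SE 0.32, edgeR adjusted p = 0.005). Dclk1, a kinase used as their marker, had 329, 317 and 213 and 63.2, 141 and 179.7 (log2 fold change -1.16, SE 0.34, edgeR adjusted p = 0.0371). Plcg2, a phospholipase that other cells also express, rose instead (log2 fold change 0.73, SE 0.18, edgeR adjusted p = 0.0159). The list had 1 rise and 2 falls among 13 tested genes and a median of -0.68, and the number of falls was 1, 1 and 2 without WT replicate 1, 2 or 3 and 1, 1 and 5 without double knockout replicate 1, 2 or 3. Enteroendocrine cells, which make gut hormones, gave 1 call in 19: Ghrl, the ghrelin gene, fell 5.59-fold from 279.6, 373 and 173 to 33.7, 76.8 and 36.9 (log2 fold change -2.48, SE 0.43, edgeR adjusted p = 0.00304). The general endocrine marker Chga had 2978, 3455 and 1991 in WT and 2372, 5381 and 2998 in the double knockout, overlapping ranges (log2 fold change 0.35, SE 0.35, edgeR adjusted p = 0.532), and Neurog3, which commits cells to this lineage, was not called either (log2 fold change -0.16, SE 0.20, edgeR adjusted p = 0.637). The call was lost on leaving out single libraries for Dclk1 (4 of 6 fits, highest edgeR adjusted p = 0.12, without WT replicate 1). It was also lost with replicate numbers as a block and when only the groups compared were fitted.

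Notch signalling sets the balance between absorptive and secretory fates. Notch1, a receptor of crypt cells, had 991, 957 and 941 normalised counts in WT against 721, 515 and 532 in the double knockout, without overlap (log2 fold change -0.71, SE 0.13, edgeR adjusted p = 0.00331). Notch3 moved the other way at a low level, from 19.1, 22.6 and 21.9 to 71.4, 93.5 and 86.4 (log2 fold change 1.98, SE 0.21, edgeR adjusted p = 0.000283). Lfng, which modifies Notch receptors with sugar, fell (log2 fold change -1.10, SE 0.19, edgeR adjusted p = 0.00259), and the ligand gene Jag1 rose (log2 fold change 0.73, SE 0.12, edgeR adjusted p = 0.00195). In all, 2 of 16 rose and 4 fell, and the other called falls, named after their values were seen, were Sox4 and the ligand gene Dll4. Hes1, a direct target, had 1963, 1912 and 1972 in WT and 2099, 2003 and 1792 in the double knockout and did not change detectably (log2 fold change 0.011, SE 0.079, edgeR adjusted p = 0.938). The number of falls was 4, 3 and 3 without WT replicate 1, 2 or 3 and 2, 3 and 4 without double knockout replicate 1, 2 or 3.

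Most tested enterocyte genes of the brush border, the microvillar surface that digests food, were called as rises. Of 17 tested hydrolases, 11 rose, none fell, and all had a positive log2 fold change, with a median of 0.93. Anpep, aminopeptidase N (chromosome 7, 79821803 to 79861059, minus strand), had 13056, 14712 and 15164 normalised counts in WT against 40882, 39188 and 40312 in the double knockout, a 2.8-fold rise without overlap (log2 fold change 1.49, SE 0.22, edgeR adjusted p = 0.00144). Dpp4, a dipeptidyl peptidase, had 2535, 2529.7 and 2296 and 4899, 3990.1 and 5087 (log2 fold change 0.93, SE 0.13, edgeR adjusted p = 0.00117). For both genes the lowest double knockout library was above the highest WT library. Mgam, maltase-glucoamylase, rose from 9421, 9636 and 9164 to 19340.3, 13639 and 17410.1 (log2 fold change 0.84, SE 0.12, edgeR adjusted p = 0.00123). Naaladl1, a dipeptidase, rose most in the list, from 129.7, 182 and 38.6 to 1344, 354 and 783 (log2 fold change 2.82, SE 0.54, edgeR adjusted p = 0.00486). Sis, sucrase-isomaltase, had 37979.5, 36068 and 35666 in WT and 55159.7, 32164 and 48699 in the double knockout and was not called (log2 fold change 0.31, SE 0.17, edgeR adjusted p = 0.243), nor was the alkaline phosphatase gene Alpi, whose replicate 3 was below every WT library at 30551, 26714 and 10783 against 10872, 12035 and 16664 (log2 fold change 0.78, SE 0.31, edgeR adjusted p = 0.101). Without replicate 3 Alpi was called as a rise (log2 fold change 1.12, edgeR adjusted p = 0.00488), as it was by DESeq2 (adjusted p = 0.0393) and by edgeR without a filter. The number of rises was between 9 and 13 in the leave-one-out fits. Of the 10 epithelial markers 3 rose and 1, Cdx2, fell, with a median of 0.20, and Epcam, a general epithelial adhesion molecule, was not called (log2 fold change -0.14, SE 0.094, edgeR adjusted p = 0.343). The rises were Cdh17, an intestinal cadherin (log2 fold change 0.72, SE 0.12, edgeR adjusted p = 0.00242), Krt20, a keratin of mature villus cells (log2 fold change 1.88, SE 0.32, edgeR adjusted p = 0.0026), and Vil1, villin (log2 fold change 0.41, SE 0.11, edgeR adjusted p = 0.0269), whose promoter drives the Cre transgene. In leave-one-out fits the call was lost for Vil1 (4 of 6 fits, highest edgeR adjusted p = 0.106, without WT replicate 1).

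Dietary fat handling gave 9 rises among 18 tested genes and no fall, with a median of 0.59. Apoa4, an apolipoprotein of chylomicrons, had 18050.4, 19054 and 12141 normalised counts in WT against 62799.9, 45047 and 40506 in the double knockout, a 3.01-fold rise (log2 fold change 1.59, SE 0.26, edgeR adjusted p = 0.00245). Apob, the structural protein of chylomicrons, had 13615, 13290.4 and 14584 and 30392, 24645 and 31389 (log2 fold change 1.06, SE 0.19, edgeR adjusted p = 0.00366). Neither gene had overlapping groups. Npc1l1, which takes up cholesterol, rose (log2 fold change 0.93, SE 0.17, edgeR adjusted p = 0.00376), and so did Fabp2, the intestinal fatty acid binding protein (log2 fold change 1.18, SE 0.26, edgeR adjusted p = 0.00944). The number of rises was 6, 7 and 7 without WT replicate 1, 2 or 3 and 7, 9 and 9 without double knockout replicate 1, 2 or 3. Of 6 tested genes that handle bile acids, which are recovered mainly in the ileum, 3 rose. Slc10a2, the apical uptake carrier, had 34.2, 31.8 and 30.3 and 125, 144 and 189 (log2 fold change 2.25, SE 0.38, edgeR adjusted p = 0.0026), and the genes of the basolateral exporter, Slc51a (log2 fold change 0.83, SE 0.16, edgeR adjusted p = 0.00585) and Slc51b (log2 fold change 1.92, SE 0.34, edgeR adjusted p = 0.00317), rose with it. These 3 genes were called in all 6 leave-one-out fits, and Fgf15, the ileal hormone that restrains bile acid synthesis, was lower without a call (log2 fold change -0.94, SE 0.76, edgeR adjusted p = 0.424). Of 9 tested sugar absorption genes 2 rose and none fell. The calls were Slc5a4b, a relative of the sodium-glucose carriers (log2 fold change 2.47, SE 0.52, edgeR adjusted p = 0.00814), and the inositol carrier gene Slc5a11 (log2 fold change 1.25, SE 0.37, edgeR adjusted p = 0.0354). Slc5a1, the main glucose carrier, had 12324, 12836 and 11759 in WT and 20645, 13937 and 13394 in the double knockout without passing the test (log2 fold change 0.38, SE 0.16, edgeR adjusted p = 0.124), and the fructose carrier gene Slc2a5 had 1 double knockout library above and 2 below the WT range (log2 fold change 0.018, SE 0.22, edgeR adjusted p = 0.966). Leave-one-out fits lost the call of Slc5a11 (4 of 6 fits, highest edgeR adjusted p = 0.131, without double knockout replicate 1).

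Amino acid carriers changed in both directions. Slc6a19, the main neutral amino acid carrier of the brush border, had 1019.8, 1103 and 1015 normalised counts in WT against 2786, 1795 and 2320.0 in the double knockout (log2 fold change 1.14, SE 0.18, edgeR adjusted p = 0.00195). The peptide carrier gene Slc15a1 had 477, 584 and 425 and 1335, 775 and 1254 (log2 fold change 1.18, SE 0.23, edgeR adjusted p = 0.00526). Both rose without overlap. Slc7a5, the large neutral amino acid carrier of dividing cells, fell from 1298, 1359.8 and 1306 to 689, 803 and 582 (log2 fold change -0.94, SE 0.13, edgeR adjusted p = 0.00113), while Slc3a2, the heavy chain it shares with other carriers, rose (log2 fold change 0.64, SE 0.095, edgeR adjusted p = 0.00144) with Slc7a8, one of those other carriers (log2 fold change 1.68, SE 0.28, edgeR adjusted p = 0.0023). The other falls were the glutamine carrier gene Slc1a5 (-0.51, edgeR adjusted p = 0.00418) and the arginine carrier gene Slc7a1 (-0.41, edgeR adjusted p = 0.0214). The list had 8 rises and 3 falls among 15, and the number of rises was 5, 5 and 6 without WT replicate 1, 2 or 3 and 5, 9 and 5 without double knockout replicate 1, 2 or 3. Over all 279 tested solute carrier genes, 68 rose (24.4% against 9.41% of all genes) and 20 fell (7.17% against 7.9%), and rises numbered 36, 39 and 42 without WT replicate 1, 2 or 3 and 49, 51 and 67 without double knockout replicate 1, 2 or 3. Falls numbered 12, 12 and 12 without WT replicate 1, 2 or 3 and 12, 17 and 15 without double knockout replicate 1, 2 or 3. The call was lost on leaving out single libraries for Slc7a1 (3 of 6 fits, highest edgeR adjusted p = 0.0722, without WT replicate 3).

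Salt and water secretion runs through Cftr, the chloride channel of crypt cells. Its levels were 3716, 3615 and 2129.6 normalised counts in WT against 2117, 1949 and 2091 in the double knockout, below the WT range in every library but just short of the threshold (log2 fold change -0.62, SE 0.20, edgeR adjusted p = 0.0505). The fall was called by DESeq2 (adjusted p = 0.0203) and by edgeR without a filter, with at least 10 counts in every library and on the unstranded counts, and its edgeR adjusted p without single libraries reached 0.186. The basolateral chloride loader gene Slc12a2 did not change detectably (log2 fold change -0.13, SE 0.10, edgeR adjusted p = 0.414). Of 24 tested ion transport genes 8 rose and 2 fell. The rises included the villus scaffold genes Pdzk1 (log2 fold change 1.09, SE 0.19, edgeR adjusted p = 0.00272) and Slc9a3r1 (log2 fold change 0.79, SE 0.14, edgeR adjusted p = 0.00351), the sulphate carrier gene Slc26a2 (log2 fold change 0.79, SE 0.17, edgeR adjusted p = 0.00818) and the potassium channel subunit gene Kcne3 (log2 fold change 1.41, SE 0.26, edgeR adjusted p = 0.00377). The falls, named after their values were seen, were Kcnq1, a potassium channel (log2 fold change -0.45, SE 0.10, edgeR adjusted p = 0.00833), and the proton pump gene Atp12a (log2 fold change -2.64, SE 0.71, edgeR adjusted p = 0.0245). The number of rises was 4, 5 and 6 without WT replicate 1, 2 or 3 and 6, 5 and 9 without double knockout replicate 1, 2 or 3. Falls numbered 1, 0 and 2 without WT replicate 1, 2 or 3 and 1, 2 and 2 without double knockout replicate 1, 2 or 3. Of 14 metal handling genes, 3 rose and 1 fell: Slc39a4, the zinc importer, had 1387, 1465 and 1548 in WT and 3309, 3393 and 3006 in the double knockout (log2 fold change 1.14, SE 0.16, edgeR adjusted p = 0.00122), and Heph, the iron oxidase of iron export, rose (log2 fold change 0.85, SE 0.13, edgeR adjusted p = 0.00156). The duodenal iron reductase gene Cybrd1 ranged so widely within WT, 1260.2, 2469 and 37.6, that its double knockout values of 82.6, 17.7 and 9.71 overlapped them (log2 fold change -5.11, SE 1.60, edgeR adjusted p = 0.0456). In leave-one-out fits the call was lost for Kcnq1 (1 of 6 fits, highest edgeR adjusted p = 0.0503, without WT replicate 2), Atp12a (4, 0.0763, without WT replicate 2) and Cybrd1 (5, 0.136, without WT replicate 2).

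Drug and toxin metabolism changed in both directions, 7 up and 4 down of 30. Abcb1a, the P-glycoprotein efflux pump, had 2526, 2403 and 2120.2 normalised counts in WT against 4040.4, 3599 and 4632 in the double knockout (log2 fold change 0.80, SE 0.13, edgeR adjusted p = 0.00198). Cyp3a13, a cytochrome P450, rose from 4319.7, 4773 and 4730 to 8579.7, 10911 and 9842 (log2 fold change 1.09, SE 0.19, edgeR adjusted p = 0.00279), and Cyp4b1, another, rose by more (log2 fold change 1.70, SE 0.33, edgeR adjusted p = 0.00526). Cyp2c55 fell from 2486, 2851 and 2925 to 403, 1064 and 911 (log2 fold change -1.80, SE 0.41, edgeR adjusted p = 0.0114). Cyp2c genes form a cluster of close copies, so reads may be lost or shared among them. Sult1b1, a sulphotransferase, rose (log2 fold change 0.63, SE 0.11, edgeR adjusted p = 0.00246), and Cyp3a11, whose groups overlapped, was not called (log2 fold change -0.023, SE 0.17, edgeR adjusted p = 0.941). The number of rises was 4, 4 and 6 without WT replicate 1, 2 or 3 and 5, 7 and 9 without double knockout replicate 1, 2 or 3. The falls numbered 3, 3 and 2 without WT replicate 1, 2 or 3 and 4, 4 and 3 without double knockout replicate 1, 2 or 3.

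Intestinal transcription factors leaned the other way from the enterocyte genes above. Among 21 factors, 5 fell and 1 rose, with a median of -0.14. Vdr, the vitamin D receptor, had 12559.9, 12821 and 11971 normalised counts in WT against 7391, 7051 and 7007 in the double knockout, a fall without overlap (log2 fold change -0.80, SE 0.14, edgeR adjusted p = 0.00356). The gut identity factor Cdx2 (log2 fold change -0.35, SE 0.086, edgeR adjusted p = 0.0158) and the crypt factor Klf5 (log2 fold change -0.38, SE 0.10, edgeR adjusted p = 0.0207) fell by less. Hnf4a, a driver of enterocyte genes, had 16452, 17040.3 and 16292 in WT and 16227, 13760.4 and 11965 in the double knockout and did not pass the test (log2 fold change -0.25, SE 0.14, edgeR adjusted p = 0.248). The number of falls was 4, 4 and 3 without WT replicate 1, 2 or 3 and 4, 2 and 5 without double knockout replicate 1, 2 or 3. The rise, named after its value was seen, was Nr1i2, the xenobiotic receptor gene (log2 fold change 0.35, SE 0.11, edgeR adjusted p = 0.0449), and the replicate block and the fit with only the groups compared gave 0 rises. Leave-one-out fits lost the call of Cdx2 (2 of 6 fits, highest edgeR adjusted p = 0.0618, without WT replicate 1), Klf5 (2, 0.0854, without WT replicate 3) and Nr1i2 (5, 0.123, without WT replicate 3).

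Interferon-stimulated genes had a median of 1.21, but 3 of 31 were called. Oasl1, an antiviral oligoadenylate synthetase-like protein, had 279.6, 307 and 255 normalised counts in WT against 1348, 1594 and 1025 in the double knockout, without overlap, and kept its call in every leave-one-out fit (log2 fold change 2.24, SE 0.49, edgeR adjusted p = 0.0101). Ifit1, which binds viral RNA, had 59.3, 72.9 and 51.2 and 162, 336 and 429 (log2 fold change 2.34, SE 0.68, edgeR adjusted p = 0.0343), and Oas3, an RNA sensor, had 21.1, 22.6 and 12.5 and 61.2, 238 and 256 (log2 fold change 3.30, SE 1.05, edgeR adjusted p = 0.049). In both, replicate 1 of the double knockout was far below replicates 2 and 3. Isg15, a ubiquitin-like modifier, overlapped between the groups at 13.1, 11.3 and 8.35 and 11.2, 65 and 26.2 (log2 fold change 1.64, SE 0.99, edgeR adjusted p = 0.28) and rests on few reads. The number of calls was 1, 1 and 1 without WT replicate 1, 2 or 3 and 3, 1 and 1 without double knockout replicate 1, 2 or 3, and it was 16 when the spread was estimated from the 6 libraries alone. The single knockouts, which share the WT libraries, had list medians of 1.27 (Cdk8) and 2.15 (Cdk19) against WT, and Ifit1 was at 2.19 (edgeR adjusted p = 0.0867) and 2.83 (edgeR adjusted p = 0.155) in them. The antigen presentation genes H2-K1 (log2 fold change 0.84, SE 0.21, edgeR adjusted p = 0.0182) and B2m (log2 fold change 0.85, SE 0.22, edgeR adjusted p = 0.0194) rose, 2 of 18 tested, and these calls numbered 0, 1 and 0 without WT replicate 1, 2 or 3 and 2, 0 and 2 without double knockout replicate 1, 2 or 3. The call was lost on leaving out single libraries for Ifit1 (5 of 6 fits, highest edgeR adjusted p = 0.108, without WT replicate 1), Oas3 (5, 0.135, without WT replicate 3), H2-K1 (3, 0.0662, without WT replicate 3) and B2m (4, 0.0733, without WT replicate 1).

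Inflammatory and injury-response genes gave scattered rises. Tnfaip3, a brake on NF-kB, had 376, 365 and 441 normalised counts in WT against 678, 648 and 792 in the double knockout (log2 fold change 0.84, SE 0.15, edgeR adjusted p = 0.00328). Il18, an epithelial cytokine, had 180.0, 176 and 166 and 404, 522 and 270.0 (log2 fold change 1.20, SE 0.25, edgeR adjusted p = 0.00789). Both were clear of the WT range, and both kept the call in all leave-one-out fits. The NF-kB list had 5 rises in 17, numbering 2, 2 and 2 without WT replicate 1, 2 or 3 and 5, 2 and 2 without double knockout replicate 1, 2 or 3, while the inhibitor gene Nfkbia had double knockout libraries on both sides of the WT range (log2 fold change 0.041, SE 0.20, edgeR adjusted p = 0.908). Of 9 tested antimicrobial genes 1 was called, Lypd8, which keeps bacteria off the epithelium (log2 fold change 0.92, SE 0.26, edgeR adjusted p = 0.0323), and the lectin gene Reg3g had 4303, 4209 and 4138 in WT and 1868, 3231 and 6624 in the double knockout (log2 fold change -0.11, SE 0.47, edgeR adjusted p = 0.897). YAP targets and genes of regenerating epithelium had a median of 1.02 and 7 rises in 16, numbering 4, 4 and 6 without WT replicate 1, 2 or 3 and 10, 4 and 6 without double knockout replicate 1, 2 or 3. Ccn1, a matricellular YAP target, had 139, 158 and 162 and 263, 419 and 502 (log2 fold change 1.37, SE 0.27, edgeR adjusted p = 0.00547). Anxa1, an annexin of injured epithelium, had 402, 470.4 and 301 and 688, 1686 and 1996 (log2 fold change 1.90, SE 0.41, edgeR adjusted p = 0.00888). Il33, an alarmin, rose from very few reads, 2.01, 6.16 and 8.35, to 76.5, 66 and 65.1 (log2 fold change 3.63, SE 0.60, edgeR adjusted p = 0.00244). Clu, the marker of revival stem cells, did not change detectably (log2 fold change -0.20, SE 0.26, edgeR adjusted p = 0.639). In leave-one-out fits the call was lost for Lypd8 (5 of 6 fits, highest edgeR adjusted p = 0.112, without WT replicate 1).

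Of 20 immediate early genes, which respond to growth factors within minutes, Egr1 fell and Dusp5 rose. Egr1, a zinc finger transcription factor, had 867, 941 and 1384 normalised counts in WT against 152, 217 and 328 in the double knockout, a 4.57-fold fall without overlap that kept its call in all leave-one-out fits (log2 fold change -2.19, SE 0.39, edgeR adjusted p = 0.00335). Dusp5, a phosphatase that dampens ERK, had a small rise (log2 fold change 0.34, SE 0.10, edgeR adjusted p = 0.0374). Fos had 352, 365 and 436 in WT and 388, 574 and 449.6 in the double knockout, overlapping ranges (log2 fold change 0.29, SE 0.21, edgeR adjusted p = 0.376). No other member was called as a fall, and the median of the list was 0.26. Rises numbered 0 to 3 in leave-one-out fits, with 3 of them without double knockout replicate 1, and 4 by DESeq2, 4 by edgeR without a filter and 3 with only the groups compared. Leave-one-out fits lost the call of Dusp5 (5 of 6 fits, highest edgeR adjusted p = 0.152, without WT replicate 1).

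Energy metabolism gave few calls. Among 56 oxidative phosphorylation genes 2 rose and 1 fell, with a median of 0.081. The rises numbered 1, 0 and 0 without WT replicate 1, 2 or 3 and 0, 0 and 5 without double knockout replicate 1, 2 or 3, and falls 0 or 1. In 25 glycolysis and hypoxia genes the only call was Hk1, a hexokinase (log2 fold change 0.94, SE 0.15, edgeR adjusted p = 0.00193). Ldha, lactate dehydrogenase, spread widely in the double knockout, 19335, 11798 and 7777, around WT values of 13408, 13991 and 13276 (log2 fold change -0.064, SE 0.32, edgeR adjusted p = 0.912). Of 28 sterol and fatty acid synthesis genes 4 rose. Scd1, the stearoyl-CoA desaturase, had 1249, 1308 and 1524 in WT and 15196, 4863 and 2134 in the double knockout with replicate 1 highest and replicate 3 nearest to WT (log2 fold change 2.44, SE 0.62, edgeR adjusted p = 0.0198). The others were the sterol synthesis genes Fdps (0.99, edgeR adjusted p = 0.0313), Sc5d (0.85, edgeR adjusted p = 0.0201) and Pmvk (0.78, edgeR adjusted p = 0.0418). The number of sterol rises was 0, 0 and 1 without WT replicate 1, 2 or 3 and 0, 2 and 7 without double knockout replicate 1, 2 or 3. In the protein folding and stress list 4 rose and 4 fell of 23. Edem1, which clears misfolded glycoproteins (log2 fold change 0.64, SE 0.11, edgeR adjusted p = 0.00279), and the chaperone gene Dnajb9 (log2 fold change 0.58, SE 0.12, edgeR adjusted p = 0.00621) rose, and Atf4, the main factor of the integrated stress response, fell slightly (log2 fold change -0.32, SE 0.10, edgeR adjusted p = 0.0425). The other falls in the list, named after their values were seen, were the Atf4 target genes Chac1 (-0.97, edgeR adjusted p = 0.0446), Atf5 (-0.74, edgeR adjusted p = 0.0162) and the cystine carrier gene Slc7a11 (-1.06, edgeR adjusted p = 0.0339). Rises in this list numbered 2, 4 and 4 without WT replicate 1, 2 or 3 and 4, 4 and 9 without double knockout replicate 1, 2 or 3, and falls 2, 1 and 0 without WT replicate 1, 2 or 3 and 2, 3 and 1 without double knockout replicate 1, 2 or 3. The call was lost on leaving out single libraries for Scd1 (4 of 6 fits, highest edgeR adjusted p = 0.0789, without WT replicate 1), Fdps (5, 0.105, without double knockout replicate 1), Sc5d (3, 0.0787, without WT replicate 1), Pmvk (5, 0.14, without WT replicate 1), Atf4 (5, 0.138, without WT replicate 3), Chac1 (5, 0.119, without WT replicate 3), Atf5 (2, 0.0557, without WT replicate 3) and Slc7a11 (3, 0.141, without WT replicate 3).

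The largest single-gene differences were of another size. By a rule on called genes averaging 25 or more normalised counts and a change of more than 8-fold, set after the values had been seen, 37 genes stood out, 21 higher and 16 lower, and 7 were pseudogenes. Chrna4, a nicotinic receptor subunit, had 3.02, 2.05 and 0 normalised counts in WT against 276, 22.6 and 14.6 in the double knockout, so 1 library carried most of the rise (log2 fold change 5.83, SE 1.47, edgeR adjusted p = 0.0189). Adgrd1, an adhesion G-protein-coupled receptor, had 37.2, 61.6 and 33.4 and 1131, 249 and 151, again highest in replicate 1 (log2 fold change 3.53, SE 0.72, edgeR adjusted p = 0.0069). Npl, a sialic acid lyase, rose from 53.3, 55.5 and 15.7 to 705, 274 and 227 (log2 fold change 3.27, SE 0.53, edgeR adjusted p = 0.00204). Sgk2, a serum-regulated kinase, was steadier at 15.1, 16.4 and 13.6 and 189, 147 and 91.3 (log2 fold change 3.23, SE 0.46, edgeR adjusted p = 0.00125), as were Mcam, an adhesion molecule (log2 fold change 2.79, SE 0.26, edgeR adjusted p = 0.000106), and Ifit1bl2, an interferon-induced relative of Ifit1 (log2 fold change 2.80, SE 0.33, edgeR adjusted p = 0.000457). Gda, guanine deaminase, was among the 10 lowest p-values (log2 fold change 1.84, SE 0.15, edgeR adjusted p = 5.13e-05). In leave-one-out fits the call was lost for Chrna4 (4 of 6 fits, highest edgeR adjusted p = 0.0785, without double knockout replicate 1).

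The largest fall was that of Gm43305, a gene annotated as a processed transcript (chromosome 14, 54292443 to 54297456, minus strand), with 8095, 6840.4 and 10786 normalised counts in WT, 1.02, 0.985 and 0 in the double knockout, 0, 0 and 0.96 in the Cdk8 knockout and 3392, 4259.9 and 4109 in the libraries labelled Cdk19 knockout, of which replicate 1 had Cdk19 at the WT level (log2 fold change -13.41, SE 0.35, edgeR adjusted p = 3.83e-10). It rested on 2 raw reads in the double knockout, and the ratio of summed reads, WT over double knockout, was 12948 with an exact 95% interval of 3584 to 106917 that covers counting error only. Among protein-coding falls, Mmp14, the membrane-bound matrix metalloprotease (chromosome 14, 54431612 to 54445364, plus strand), had 518, 601 and 1089.8 normalised counts in WT against 18.4, 0 and 2.91 in the double knockout (log2 fold change -6.70, SE 0.56, edgeR adjusted p = 6e-05). Gpc3, a glypican of the cell surface, had 495, 519 and 326 and 77.5, 17.7 and 14.6 (log2 fold change -3.62, SE 0.52, edgeR adjusted p = 0.00125). Both kept higher levels in the single knockouts: the Cdk8 knockout libraries had 449, 302 and 521 for Mmp14 and 413, 232 and 289 for Gpc3, and the Cdk19 knockout libraries 509.8, 587 and 541 and 133, 184 and 298. In the direct test against the Cdk8 knockout Mmp14 passed and Gpc3 did not (log2 difference -3.09, edgeR adjusted p = 0.0842). Zfp990, a zinc finger gene, had 0 reads in all 3 double knockout libraries and in all 3 Cdk8 knockout libraries, against 170.0, 153 and 102 in WT and 88.7, 198 and 175 in the Cdk19 knockout, at least 47.6-fold lower than WT taking 3 reads per library as the floor (chromosome 4, 145510759 to 145539188, plus strand; edgeR adjusted p = 0.000318). Eno1b, an enolase copy, fell from 477, 475 and 504 to 41.8, 33.5 and 12.6 (log2 fold change -4.05, SE 0.36, edgeR adjusted p = 9.25e-05), and the Cdk8 knockout had 15.1, 36.7 and 14.4 while the Cdk19 knockout had 549, 381 and 380.1. The same pattern, near the double knockout in the Cdk8 knockout and near WT in the libraries labelled Cdk19 knockout, with or without replicate 1, held for Esr1, with 1.01, 4.11 and 6.26 in WT, 393, 318 and 298 in the double knockout, 286, 301 and 312 in the Cdk8 knockout and 4.03, 2.92 and 2.96 in the Cdk19 knockout. The CreERT2 protein carries the ligand-binding domain of the human oestrogen receptor, and reads from the transgene and from Esr1 cannot be told apart in these tables. Adgrf1, an adhesion receptor (log2 fold change -2.67, SE 0.27, edgeR adjusted p = 0.000235), Pacsin3, a membrane-shaping protein (log2 fold change -2.28, SE 0.34, edgeR adjusted p = 0.00146), and Myh7, a myosin heavy chain (log2 fold change -2.30, SE 0.39, edgeR adjusted p = 0.0027), also fell. Gm11942, Gm13394, Gm11868 and BC064078, which were among the 10 lowest p-values, are pseudogenes whose reads may be shared with parent genes, and their counts are uncertain. The same limit applies to Eno1b, as a gene copy.

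**Figure D3:**
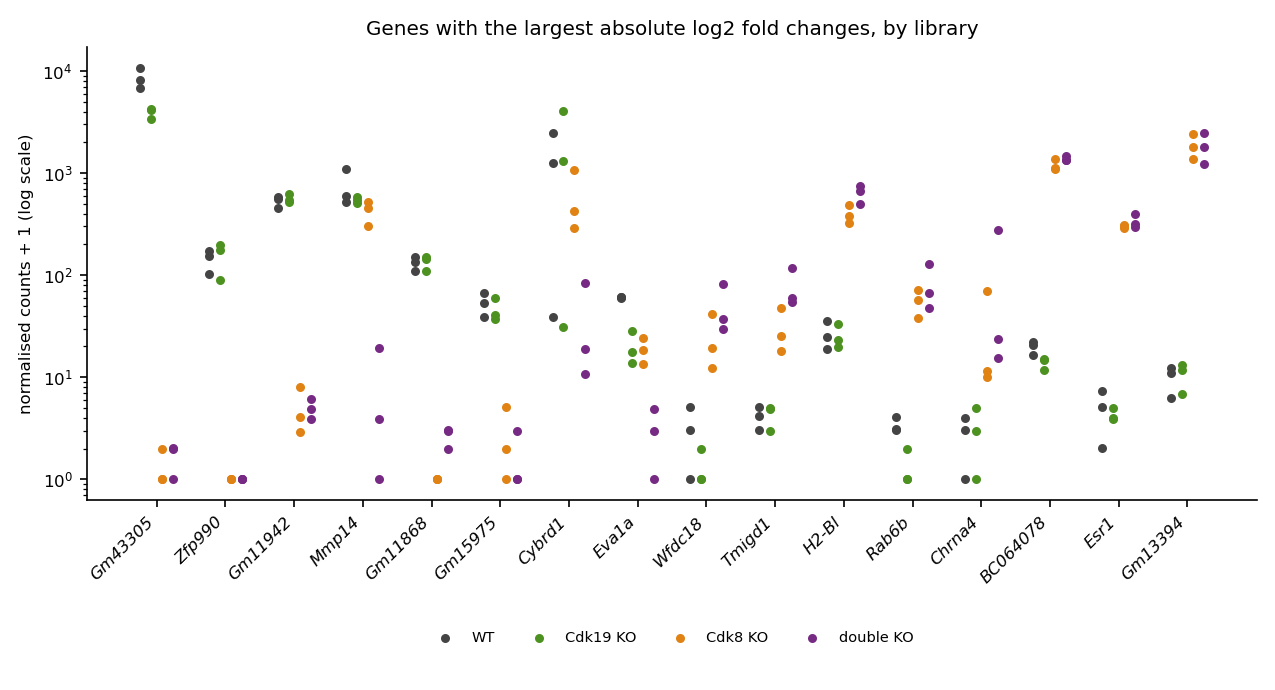
Normalised counts plus 1 (logarithmic axis) of 16 genes with a gap of more than 8-fold between the groups, 1 point per library, for WT, Cdk19 knockout, Cdk8 knockout and double knockout. For Zfp990 and Esr1 the Cdk8 knockout points lie with the double knockout and the Cdk19 knockout points with WT. For Mmp14 the double knockout points stand apart from the other 3 groups. The library labelled Cdk19 knockout replicate 1 had Cdk19 at the WT level.

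Where such changes lay in the genome was counted, with no test. Chromosome 19 had called changes of more than 2-fold in 8.86% of its 542 tested genes and chromosome 17 in 6.55% of 763, against 4.67% of all genes, while their shares of calls of any size, 17.3% and 17.6%, were close to the 17.3% of all genes. Of 229 windows of 10 Mb with at least 20 tested genes, whose median share was 4%, the highest was 30 to 40 Mb on chromosome 19, where 18 of 62 genes changed by more than 2-fold (29%), 12 up and 6 down. The count was 10, 10 and 12 without WT replicate 1, 2 or 3 and 14, 11 and 15 without double knockout replicate 1, 2 or 3. It holds families of neighbouring copies: the interferon-induced Ifit1, Ifit1bl1 and Ifit1bl2 rose, the cytochrome genes Cyp2c29, Cyp2c37, Cyp2c39 and Cyp2c55 fell, and Cyp2c67 rose. Of these calls, those of Ifit1 and Ifit1bl1 held in 1 of 6 leave-one-out fits and were lost without double knockout replicate 3 (edgeR adjusted p = 0.0836 and 0.0736), that of Cyp2c39 held in 2 and that of Cyp2c67 in 3. Cyp2c37 had 296, 376 and 387 normalised counts in WT, 21.4, 27.6 and 35.9 in the double knockout, 40.3, 7.14 and 25.9 in the Cdk8 knockout and 178, 249.9 and 339.6 in the Cdk19 knockout (log2 fold change -3.63, SE 0.40, edgeR adjusted p = 0.000308). Single members of these families are uncertain for the reason given for defensins. Within 20 Mb of Cdk8, 46 of 296 tested genes were called (15.5%), and within 20 Mb of Cdk19, 20 of 148 (13.5%), both under the 17.3% of all genes.

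**Figure D4:**
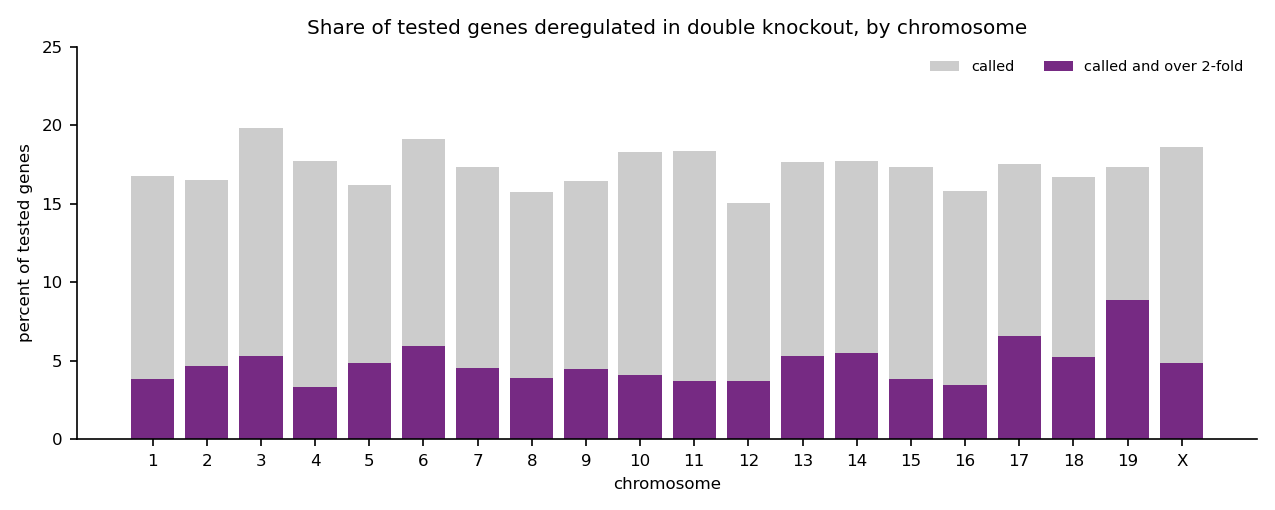
Percent of tested genes that were called (grey) and that were called with a change of more than 2-fold (purple) on each mouse chromosome, 1 to 19 and X, in the double knockout against WT. The purple bar is tallest on chromosome 19, at 8.86%, where the grey bar, 17.3%, is close to that of all genes.

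Each double knockout library was also read against genes called without it. Of the 2006 genes called when replicate 1 was left out, 97% lay on the same side of WT in replicate 1. The log2 change of replicate 1 was divided by that of the other double knockout libraries, both from normalised counts plus 1 against the WT mean. The median of this ratio was 0.905. For replicate 2 the values were 98.6% of 1917 genes and a ratio of 0.833. For replicate 3, whose Cdk19 level was above every WT library, they were 94.9% of 2452 genes and a ratio of 0.769. The WT libraries are in both parts of this comparison, so it describes the double knockout libraries and is no independent test.

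The single Cdk8 knockout, which shares the WT libraries, is given beside the double knockout as values first and then in a direct test. Lgr5 had a log2 fold change against WT of -1.23 in the double knockout and -0.86 in the Cdk8 knockout, Lyz1 had 2.13 and 2.01, and Cdkn1a had 1.43 and 1.07. For Cdt1 the values were -0.84 and -0.34, for Mcm6 -0.73 and -0.20, and for Myc -0.63 and -0.027. Over whole lists, the median of the replication genes was -0.49 in the double knockout and -0.077 in the Cdk8 knockout, that of the brush border 0.93 and 0.40, and that of the Paneth list 1.19 and 1.53. For the p53, goblet and YAP lists the medians were 0.74 and 0.61, 0.49 and 0.61, and 1.02 and 1.23. For the stem cell and dietary fat lists they were -0.49 and -0.13, and 0.59 and 0.22. A direct test of the double against the Cdk8 knockout called 4 of 15602 genes (0.0256%), and 1 of them, Slc25a13, was a list member, and for the other list members no call was made by edgeR in this fit. The count was unsteady within edgeR: 358 genes without a filter, 0 with only the groups compared and 3 to 839 with a library left out, the 839 without Cdk8 knockout replicate 3. Whether these list members differ is therefore not settled by it. The direct differences for Cdt1, Mcm6 and Myc were -0.50 (SE 0.12), -0.52 (SE 0.13) and -0.60 (SE 0.13), each with an edgeR adjusted p of 0.141. The Wald test of DESeq2 called 407 genes in the same contrast, among them 17 replication genes as lower and 6 brush border genes as higher in the double knockout.

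Senexin B blocks the activity of both kinases and leaves the proteins in place, and its libraries share no control with the genotype libraries, though they were prepared with another method. After 16 h of drug, 4.36% of 15467 tested genes rose and 3.39% fell, and after 24 h 14.8% rose and 12.7% fell. Of the 1373 genes that rose in the double knockout and were tested in both, 162 rose with the drug at 16 h (11.8% of them, and 24% of the genes that rose with the drug) and 80 fell (5.83%). At 24 h, 215 rose (15.7%, and 9.38% of the drug's rises) and 303 fell (22.1%). Of the 1182 that fell in the double knockout, 52 fell at 16 h (4.4%, and 9.92% of the drug's falls) and 43 rose (3.64%), and at 24 h 113 fell (9.56%, and 5.77% of the drug's falls) and 310 rose (26.2%). At 24 h the opposite sign was thus the more frequent among called genes in both directions. With single libraries of either experiment left out, genes that rose in the double knockout numbered 118 to 223 for the same and 155 to 272 for the opposite sign with the drug, and without double knockout replicate 1 the same sign was the more frequent, at 223 against 207. Genes that fell numbered 65 to 127 and 157 to 299, with the opposite sign the more frequent in each of these 12 fits. Over both directions the same sign was found in 214 genes at 16 h (134 to 267 with a library left out, 310 with the replicate block) and in 328 at 24 h (190 to 343, and 416).

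Single lists went different ways. The replication genes, 32 of which fell in the double knockout, had 0 rises and 0 falls at 16 h (edgeR, with 2 and 4 at an unadjusted p of 0.05) and 27 rises and 0 falls at 24 h of drug, with a 24 h median of 0.28. Cdt1 had a log2 fold change of 0.38 at 24 h (SE 0.075, edgeR adjusted p = 0.00254) against -0.84 in the double knockout. Paneth cell genes, 11 of which rose in the double knockout, had 11 falls and 0 rises at 24 h, and Lyz1 fell with them (log2 fold change -1.02, edgeR adjusted p = 0.00123). In the tuft cell list 8 genes rose at 24 h and none fell. Other genes moved the same way under both. Lgr5 fell at 16 h (-0.47, edgeR adjusted p = 0.0285) and at 24 h (-0.97, edgeR adjusted p = 0.000112), and Egr1 fell at 16 h (-2.22, edgeR adjusted p = 3.1e-06) and at 24 h (-2.30, edgeR adjusted p = 6.66e-07). The p53 list had 17 rises and 3 falls at 24 h, Bax among the rises (0.79, edgeR adjusted p = 1.32e-05), but Cdkn1a had -0.38 (edgeR adjusted p = 0.0296) where the double knockout had 1.43. YAP targets had 9 rises and 2 falls, and Anxa1 rose (0.76, edgeR adjusted p = 0.00156). Of the glycolysis and hypoxia list, where 1 of 25 genes was called in the double knockout, 22 fell at 24 h of drug and 0 rose. In the directions given here with no call at 24 h, the Paneth list had 1 member at an unadjusted p of 0.05 and the replication, tuft cell and glycolysis lists had 0 (edgeR).

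**Figure D5:**
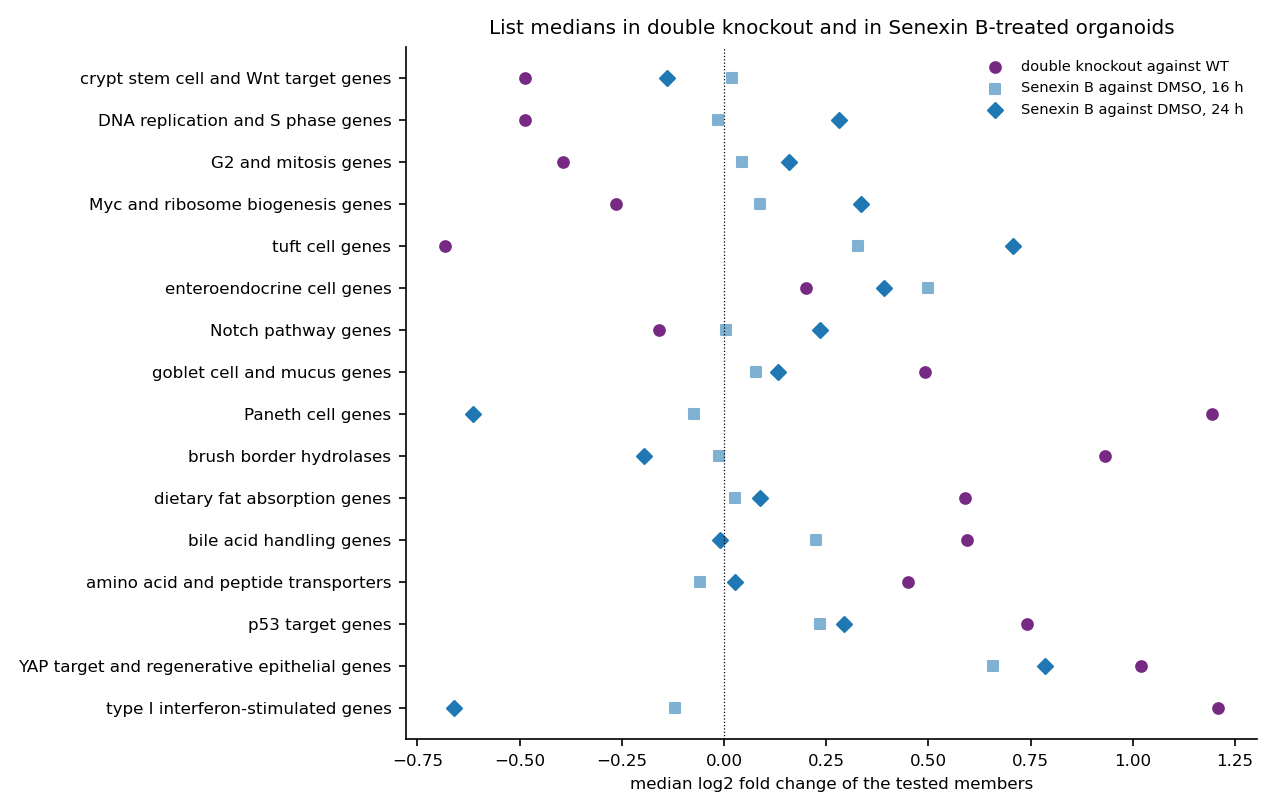
Median log2 fold change of each gene list (rows) in the double knockout against WT and in Senexin B against its solvent at 16 h and at 24 h. The replication list lies at -0.49 in the double knockout and 0.28 at 24 h of drug, and the Paneth cell list at 1.19 and -0.61.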

How the data were processed

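RNA from mouse organoids was sequenced, with poly(A) selection and single-end reads for the genotype libraries and rRNA-depleted stranded libraries for Senexin B. The authors aligned reads with STAR to GRCm38.p6 (version 2.6.0c in the submitters' processing notes) and deposited counts per gene, of which column 4 was used here and rows starting with N_ were dropped. The genotype libraries carry no strand, so column 4 holds about as many reads as column 3: 63.1% to 65.2% of the reads in these tables were not counted, against 30.2% to 33.9% in the unstranded column, an alternative given in the closing section. Antisense and overlapping genes therefore cannot be told apart. Counted reads per library set the precision: 14636861 to 15473180 here.

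Counts were filtered with filterByExpr, scaled by TMM and fitted with edgeR 4.0.16 (R 4.3.3) by quasi-likelihood on the 12 genotype libraries, with Benjamini-Hochberg adjustment over all 15602 tested genes. Senexin B libraries were fitted separately. Normalised counts are counts divided by effective library size, times its mean. SE is the log2 fold change divided by the square root of F. DESeq2 1.42.0 was an alternative. Scripts were tested on simulated data. Of 54146 genes, 54079 matched the annotation table.

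The 39 gene lists (782 genes) and all tests were chosen with earlier results of these data known. Genes named are the kinases, Esr1, the first 2 and up to 4 lowest-p called members of each list, the 12 largest rises and falls among protein-coding genes without overlap and averaging 50 or more normalised counts, and the 10 lowest p-values. Same-numbered WT and double knockout libraries deviated from their group means with correlations of 0.023, 0.033 and -0.014, so the numbers do not pair them. WT replicates 1 and 2 were the closest pair (chi-square 2.31 per degree of freedom, 8.99 to 35.9 in the other pairs) and were kept as separate samples. Some named genes are not reported here.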

Additional observations from a re-analysis of the deposited data

Results flagged for a closer look

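In all, 4 genes differed between the double knockout and the single Cdk8 knockout in a direct test of the 2 groups (edgeR quasi-likelihood, adjusted over 15602 genes). The calls did not hold under every setting: with the replicate block Mmp14 alone was called, with at least 10 counts in every library Tnfrsf11b alone, where Mmp14 and Olfr1419 were not tested, and with only the groups compared none (edgeR adjusted p from 0.058 to 0.111, with 1603 genes under an unadjusted p of 0.05 and 407 called by DESeq2). In leave-one-out fits Mmp14 and Tnfrsf11b kept the call throughout, Olfr1419 lost it without double knockout replicate 2, and Slc25a13 kept it without WT replicate 3 or Cdk8 knockout replicate 3 and lost it in the other 7. Mmp14, the membrane-bound matrix metalloprotease, had 18.4, 0 and 2.91 normalised counts in the double knockout and 449, 302 and 521 in the Cdk8 knockout, a log2 difference of -5.91 (SE 0.56, edgeR adjusted p = 0.00298). Tnfrsf11b, osteoprotegerin, had 13.3, 15.8 and 23.3 and 211, 86.7 and 195, a difference of -3.22 (SE 0.35, edgeR adjusted p = 0.0067), with WT at 96.6, 84.2 and 65.8. Slc25a13, a mitochondrial aspartate-glutamate carrier, had 486, 463 and 461 and 916, 885 and 855, a difference of -0.91 (SE 0.12, edgeR adjusted p = 0.0232), with 983, 1023 and 953 in WT. The olfactory receptor gene Olfr1419 rested on 1, 0 and 0 raw reads in the double knockout. Its fitted difference was -5.48 (edgeR adjusted p = 0.0117), and the ratio of summed reads, Cdk8 knockout over double knockout, was 61.2 with an exact 95% interval of 10.6 to 2457 that covers counting error only. In all 4 genes the 3 double knockout libraries were below the 3 Cdk8 knockout libraries.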

How the results depend on the processing

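The number of deregulated genes in the double knockout was 2700, and between 1348 and 2452 when single libraries were left out, with 709 to 1335 rises and 639 to 1117 falls. Calls of more than 2-fold went from 729 to 460 with at least 10 counts in every library, to 53 when the test itself required more than 2-fold (glmTreat), and to 471 to 716 with a library left out. The direct comparison with the Cdk8 knockout was the least steady: 4 genes became 407 by DESeq2, 358 without a filter, 1 with at least 10 counts, 1 with the replicate block, 0 with only the groups compared (edgeR, where 1603 genes were under an unadjusted p of 0.05, against 2417 in the fit as reported) and 3 to 839 with a library left out, the 839 without Cdk8 knockout replicate 3. Genes that moved the same way with Senexin B numbered 214 at 16 h (134 to 267 with a library left out, 310 with the replicate block) and 328 at 24 h (190 to 343, and 416). Why these counts moved was not tested. The replicate block on shared numbers gave 2628 calls against WT and 1398 rises, and 12 of the named genes lost their call with it. With only the groups compared, 10 of the named genes lost their call and 2 gained one. The unstranded counts gave 2907 calls against WT, 2 of the named genes gained a call with them and 3 lost one, and DESeq2 called 3186. Of 149 called named genes, 111 kept the call in all 6 leave-one-out fits. Signs that turned were all of genes not called. With single libraries left out, log2 fold changes ran from -0.065 to 0.59 for Chga, -0.31 to 0.083 for Neurog3, -0.027 to 0.073 for Hes1, -0.23 to 0.17 for Slc2a5, -0.14 to 0.11 for Cyp3a11, -0.73 to 0.24 for Reg3g, -0.62 to 0.32 for Reg3b, -0.15 to 0.26 for Nfkbia, -0.37 to 0.061 for Clu, -0.053 to 0.65 for Fasn, -0.46 to 0.20 for Ldha and -0.071 to 0.093 for Ndufa2. Slc2a5 was also at -0.018 with the replicate block, and Ndufa2 at 0.0062 by DESeq2 and 0.0056 with its size factors. Depth limits low genes: a count of 0 allows up to 3 reads per library.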
